A study of Mus musculus with 25 samples.

Results

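The genes described here are those that build antibodies: every row annotated as an immunoglobulin gene in the 5 deposited liver tables, with pseudogenes left out, together with Jchain. The rule gave 104 genes of 30524 listed, namely 13 constant region genes, 82 variable segments, 8 joining segments and Jchain. Liver RNA was sequenced from 25 C3H/HeJ mice, a strain prone to liver tumours, labelled as males aged 5 weeks at the start. The Untreated group (5 libraries) received saline. The DEN group (6 libraries) received the alkylating liver carcinogen diethylnitrosamine at 25 mg/kg in 5 cycles of intraperitoneal injections. The DEN_CAF group (5 libraries) had the same carcinogen and then caffeine at 50 mg/kg, the DEN_SOR group (4 libraries) the carcinogen and then the kinase inhibitor sorafenib at 30 mg/kg, and the DEN_CAF_SOR group (5 libraries) the carcinogen and then both drugs. Per the labels' protocols the drugs were given into the stomach for 3 weeks after a month of rest, caffeine 3 times and sorafenib 2 times a week, and mice not given a drug received its vehicle. The RNA is from liver samples in bulk, and the labels do not say whether tumour or surrounding tissue was taken.

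An antibody consists of paired heavy and light chains. A B cell joins a variable, a joining and, for heavy chains, a diversity segment to 1 of many possible variable regions, and splices the transcript to a constant region gene, which sets the class: Ighm for IgM, Ighd for IgD, the Ighg genes for IgG, Igha for IgA and Ighe for IgE. Light chains are of the kappa (Igkc) or lambda (Iglc1 to Iglc3) type. Resting naive B cells carry IgM and IgD, whereas plasma cells, the antibody-secreting end stage, hold very large amounts of immunoglobulin RNA. Jchain encodes the joining chain that links IgA dimers and IgM pentamers. The liver receives IgA plasma cells and B cells from gut and blood, and mouse hepatocytes carry polymeric antibody into bile through the receptor Pigr.

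Assigned reads ran from 14750278 to 21992613 per library. Mitochondrial genes took 6.36% to 34.8% of reads in the 10 libraries numbered 3 or 4 and 5.65% to 9.81% in the 15 others. Xist, which in females silences 1 X chromosome, had 13370 to 29770 reads in Untreated mice 3, 4 and 5 and at most 21 in every other library, although the labels call all mice male, so the differences of named genes from Untreated are also given without those 3 libraries. The hepatocyte genes Alb, Apoa1, Ttr, Serpina1a and Fgb summed to 25045 to 89960 FPKM (reads per kilobase of gene and per 1000000 assigned reads) in the 25 libraries, so the tissue label matched its markers. In bulk samples, fewer cells of a type and less RNA per cell cannot be told apart.

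Near-identical gene copies limit what the reads can say about single members, and the stretches below show where those copies differ. All are from GENCODE M21 transcripts on GRCm38, the reference of another mouse strain, read 5′ to 3′ over 90 bases. The first pair is the end of the lambda segments Iglv1 and Iglv2, with capitals where Iglv2 differs from Iglv1.
Iglv1: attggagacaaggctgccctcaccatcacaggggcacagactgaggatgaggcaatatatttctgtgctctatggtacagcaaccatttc
Iglv2: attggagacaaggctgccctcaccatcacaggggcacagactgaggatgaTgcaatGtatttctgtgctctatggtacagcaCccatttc
They differ at 3 of these bases and at 12 of the 366 aligned over the whole transcript, so the split of reads between them is uncertain. How reads mapped to such copies was not tested. The start of the lambda constant genes differed more, with capitals marking departures from Iglc1.
Iglc1: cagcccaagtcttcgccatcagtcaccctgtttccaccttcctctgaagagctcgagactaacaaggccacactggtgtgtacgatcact
Iglc2: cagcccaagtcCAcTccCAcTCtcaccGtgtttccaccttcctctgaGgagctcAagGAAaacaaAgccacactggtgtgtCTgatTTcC
Iglc3: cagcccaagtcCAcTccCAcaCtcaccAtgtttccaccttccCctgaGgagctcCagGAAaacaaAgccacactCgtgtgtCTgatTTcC
Iglc2 and Iglc3 were 94.9% identical over their aligned bases, against 66.9% for Iglc1 and Iglc2, so the split between Iglc2 and Iglc3 is uncertain while Iglc1 stands apart. For the IgG subclasses the start of the first constant exon is shown, with capitals for departures from Ighg1.
Ighg1: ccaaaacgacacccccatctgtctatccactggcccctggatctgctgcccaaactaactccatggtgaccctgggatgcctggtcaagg
Ighg2b: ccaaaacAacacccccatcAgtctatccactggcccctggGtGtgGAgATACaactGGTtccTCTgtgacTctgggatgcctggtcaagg
Ighg2c: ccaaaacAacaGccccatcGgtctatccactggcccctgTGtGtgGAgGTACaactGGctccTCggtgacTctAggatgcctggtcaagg
Ighg1 and Ighg2b were 75.9% identical, and Ighg2b and Ighg2c 86.4%. The last set is the end of 3 kappa segments that matter for a single mouse described further on, with capitals for departures from Igkv1-110.
Igkv1-110: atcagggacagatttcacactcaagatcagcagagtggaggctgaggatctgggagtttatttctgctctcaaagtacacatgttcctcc
Igkv1-117: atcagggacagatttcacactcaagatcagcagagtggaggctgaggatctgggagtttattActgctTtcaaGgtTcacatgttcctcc
Igkv1-88: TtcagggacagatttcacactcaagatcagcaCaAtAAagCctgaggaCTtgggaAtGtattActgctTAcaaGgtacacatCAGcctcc
Igkv1-110 and Igkv1-117 were 97.5% identical, and Igkv1-110 and Igkv1-88 were 85.5% identical.

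Immunoglobulin RNA was a very small part of these livers. All 104 genes together held 28957 reads in 25 libraries, between 0.00179% and 0.0439% of a library. Constant region genes took 24674 of these reads, Jchain 3278, variable segments 976 and joining segments 29. Igkc, the kappa constant gene (GRCm39 chromosome 6, 70703419 to 70703950, plus strand), was the most abundant member with 9533 reads and a mean of 38.1 FPKM. Ighm (chromosome 12, 113382178 to 113386350, minus strand) followed at a mean of 5.01 FPKM, then Igha (chromosome 12, 113218450 to 113223856, minus strand) at 4.43 FPKM and Jchain (chromosome 5, 88667668 to 88675750, minus strand) at 2.80 FPKM.

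The total over all members, in RPM (reads per 1000000 assigned reads), separated a pair of mice from the rest. In the Untreated group mice 1 to 5 had 62.8, 43.2, 64.7, 49.1 and 55.6 RPM. The 6 DEN mice had a lowest value of 19.0, a median of 34.7 and a highest of 158 RPM. The DEN_CAF mice had 17.9, 18.0, 38.9, 32.9 and 62.2 RPM. All the Untreated mice lay in a narrow band, whereas the DEN group ran from well below that band to far above it. DEN_SOR mice had 439, 61.6, 58.9 and 51.5 RPM, and DEN_CAF_SOR mice 48.8, 59.4, 24.0, 24.4 and 22.0 RPM. DEN_SOR mouse 1 alone held 30.5% of the immunoglobulin reads of all 25 libraries, and DEN mouse 4 held 10.8%. The other 23 libraries ran from 17.9 to 64.7 RPM with a median of 43.2 RPM. The mean was 153 ± 191 RPM (SD, n = 4) in DEN_SOR and 57.3 RPM without its mouse 1, and it was 52.4 ± 52.8 RPM (SD, n = 6) in DEN and 31.2 RPM without its mouse 4. The means of the other groups were 55.1 ± 9.08 (SD, n = 5) for Untreated, 34.0 ± 18.3 (SD, n = 5) for DEN_CAF and 35.7 ± 17.2 (SD, n = 5) for DEN_CAF_SOR. These totals are given as a description and were not tested.

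**Figure D1:**
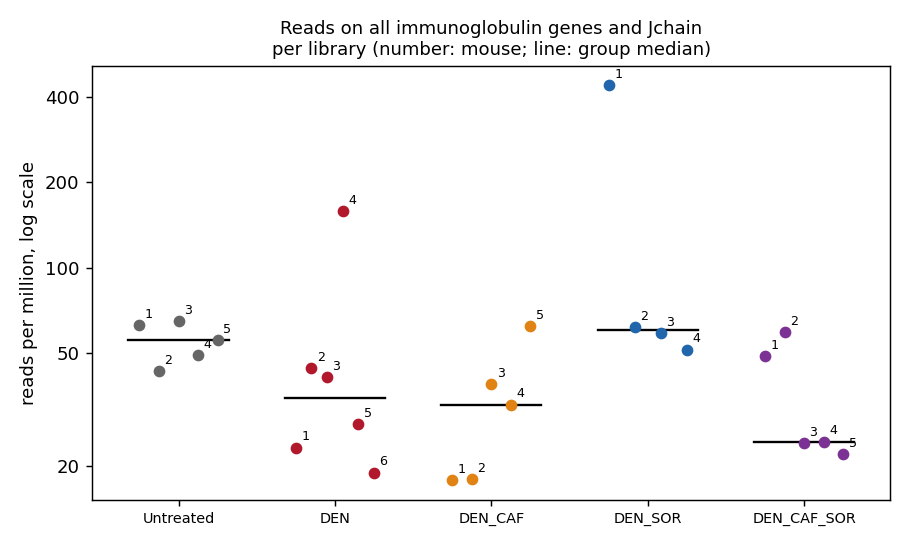
Reads on all immunoglobulin genes and Jchain in RPM (log axis) in each library, by group. Numbers give the mouse, lines the group medians. DEN_SOR mouse 1 at 439 and DEN mouse 4 at 158 stand above the 23 other libraries, which lie between 17.9 and 64.7.

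Whether the carcinogen and the drugs changed single members was tested with limma on log2(FPKM + 1) over all 12741 genes that reached 1 FPKM in at least 4 libraries, with Benjamini-Hochberg adjustment and a threshold of 0.05. Only 9 of the 104 members reached that level and were tested: Ighm, Ighd, Ighg1, Igha, Igkc, Iglc1, Iglc2, Iglc3 and Jchain. Ighg1 was closest to the limit with 5 libraries at 1 FPKM or more, 3 of them from DEN_SOR mice, and no untested member exceeded 3 libraries. No variable or joining segment was abundant enough. In DEN against Untreated none of the 9 members passed, where 2.04% of all tested genes did. In DEN_CAF against DEN none passed, where 0.00785% of all genes did. None passed in DEN_SOR against DEN, DEN_CAF_SOR against DEN, DEN_CAF_SOR against DEN_SOR, DEN_CAF_SOR against DEN_CAF or the caffeine by sorafenib interaction, where the share of all genes was 0%. At an unadjusted p under 0.05 the members numbered 2, 0, 3, 0, 4, 0 and 1 of 9 in these 7 comparisons in the order given, where the shares of all genes were 16.5%, 2.81%, 6.19%, 2.72%, 3.39%, 2.95% and 3.97%. The 2 of 9 in DEN against Untreated thus lie near the share of all genes. The counts of 3, 4 and 1, all from comparisons that involve DEN_SOR, include Ighg1, the only member in the interaction. Ighg1 was abundant enough to test mainly through DEN_SOR mice. The others were Igkc and Jchain, with Igha in the count of 4, and each had its highest level in DEN_SOR mouse 1. The counts that involve DEN_SOR are therefore a description and no support for a difference. In DEN against Untreated edgeR on the recovered reads called 1 member, where it called 4.69% of all genes, and DESeq2 called 1, where it called 8.16%. In DEN_CAF_SOR against DEN_SOR edgeR called 0 members and 0% of all genes. DESeq2 called 1 of the 12741 genes there (0.00785%), and that gene was the member Ighg1 itself. The share is therefore no background for this call. In the other 5 comparisons both tools called 0 members. There edgeR called 0.00785% of all genes in DEN_CAF against DEN and 0% elsewhere. DESeq2 called 0.0785% in DEN_CAF against DEN, 0.243% in DEN_SOR against DEN, 0% in DEN_CAF_SOR against DEN, 0.00785% in DEN_CAF_SOR against DEN_CAF and 0.0863% in the interaction.

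IgM and the lambda constant gene Iglc2 had the lowest p-values of the 9 members in DEN against Untreated, both with lower values after the carcinogen. Ighm, the constant region of the first class a B cell makes, stood at 8.60, 5.06, 11.6, 7.39 and 11.4 FPKM in Untreated mice 1 to 5. In the 6 DEN mice its lowest level was 2.02, its median 3.55 and its highest 4.54 FPKM. Every Untreated mouse was above every DEN mouse. How many of all tested genes separate these groups in the same way was not counted, so this is a description only. The log2 difference was -1.12 (SE 0.32), with an adjusted p of 0.0629 by limma, just above the threshold, so Ighm was not called. It was -1.38 by edgeR (adjusted p = 0.0305) and -1.37 by DESeq2 (adjusted p = 0.00594), which both called it. Over all 38 alternatives the adjusted p of Ighm ran from 0.00594 to 0.461. Without the 3 Untreated libraries that hold Xist reads the difference was -0.81 (adjusted p = 0.461 by limma). It was -1.20 in the libraries numbered 3 or 4 and -1.06 in the others. Ighm in the drug groups ran from 1.89 to 7.23 FPKM in DEN_CAF, from 1.80 to 6.70 in DEN_SOR and from 2.66 to 8.42 in DEN_CAF_SOR, ranges that overlapped those of DEN.

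Iglc2 (chromosome 16, 19017146 to 19019101, minus strand) was at 2.49, 1.07, 4.60, 2.37 and 3.48 FPKM in Untreated mice 1 to 5. The 6 DEN mice had a lowest level of 0.0886, a median of 0.781 and a highest of 1.72 FPKM. Untreated mouse 2 was the low one of its group and fell within the DEN range. The log2 difference was -1.09 (SE 0.31) with an adjusted p of 0.0688 by limma, 0.127 by edgeR and 0.0807 by DESeq2. Leaving out Untreated mouse 2 brought Iglc2 to -1.29 (adjusted p = 0.0418) and Ighm to -1.28 (adjusted p = 0.0477), both past the threshold by limma. Iglc2 was also past it without DEN_SOR mouse 1 (adjusted p = 0.0499), and Ighm without DEN_CAF mouse 5 (adjusted p = 0.0487), where the differences themselves stayed at -1.09 and -1.12. Without the 3 libraries with Xist reads Iglc2 stood at -0.66 (adjusted p = 0.539). The related Iglc1 (-0.34, SE 0.52) and Iglc3 (-0.09, SE 0.31) were closer to 0, and stood at -0.23 and 0.42 without the 3 libraries with Xist reads.

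The other members did not pass in DEN against Untreated. Igkc stood at 34.5, 28.2, 29.1, 29.9 and 30.4 FPKM in Untreated mice 1 to 5. The DEN mice ran from 9.86 through a median of 18.0 to 117 FPKM, with 5 of the 6 below all Untreated mice and mouse 4 far above them. The log2 difference of Igkc was -0.49 (SE 0.55), and -0.97 without DEN mouse 4. Igha, the IgA constant region, stood at 4.03, 1.44, 0.891, 2.43 and 0.821 FPKM in Untreated mice and had a lowest value of 1.21, a median of 2.36 and a highest of 21.3 FPKM in DEN, with a log2 difference of 0.63 (SE 0.56), and 0.15 without DEN mouse 4. Ighd (-0.39, SE 0.30), Ighg1 (0.10, SE 0.51) and Jchain (0.05, SE 0.33) lay closer to 0, and the last 2 changed sign without DEN mouse 4, to -0.06 and -0.19. Without the 3 libraries with Xist reads Igkc stood at -0.53 and Igha at 0.26, while Ighd (0.25), Ighg1 (-0.39) and Jchain (-0.05) changed sign.

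**Figure D2:**
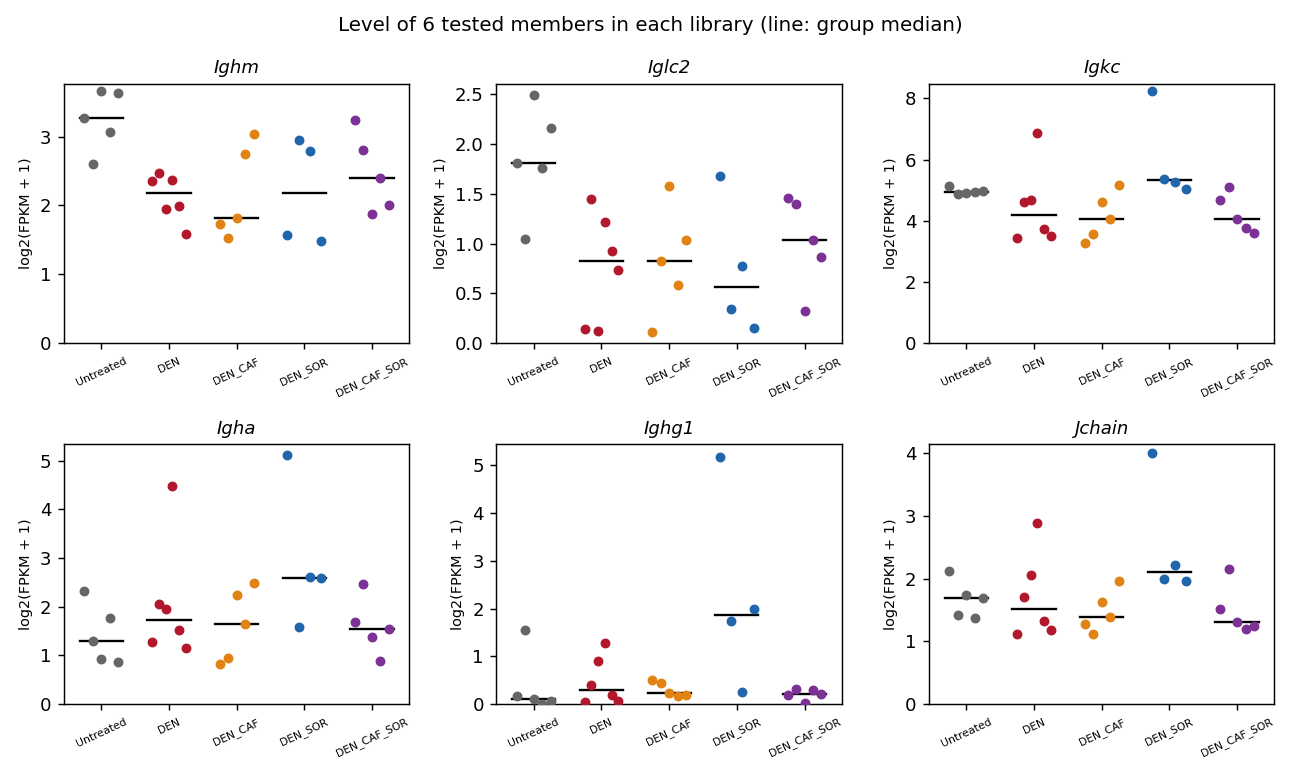
Level of 6 tested members, as log2(FPKM + 1), in each library by group, with the group median as a line. Ighm in all Untreated mice lies above all DEN mice, whereas Igkc, Igha, Ighg1 and Jchain reach their highest points in DEN_SOR mouse 1.

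With sorafenib, the kappa chain, IgG1 and Jchain had higher values than in DEN without passing the test. Ighg1 (chromosome 12, 113288860 to 113294143, minus strand), the constant region of the IgG1 subclass, was at 35.3, 2.34, 0.190 and 2.98 FPKM in DEN_SOR mice 1 to 4. In the DEN mice its lowest level was 0.0244, its median 0.228 and its highest 1.43 FPKM. DEN_SOR mice 1, 2 and 4 were above all DEN mice and mouse 3 lay within their range. The log2 difference was 1.82 (SE 0.54) with an adjusted p of 0.529 by limma. Since Ighg1 was abundant enough to test mainly through DEN_SOR mice, its comparisons with that group are a description and no p of them is support. Without DEN_SOR mouse 1 it was 0.85, and without both DEN_SOR mouse 1 and DEN mouse 4 it was 1.01 (adjusted p = 0.894).

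Igkc was at 301, 40.3, 37.9 and 31.9 FPKM in DEN_SOR mice 1 to 4, each above at least 5 of the 6 DEN mice. The log2 difference was 1.503 (SE 0.591, adjusted p = 0.769 by limma), and 0.75 without DEN_SOR mouse 1. Jchain was at 15.0, 3.00, 3.63 and 2.88 FPKM, against 1.18 to 6.41 FPKM in DEN. Its log2 difference was 0.83 (SE 0.35, adjusted p = 0.787), and 0.34 without DEN_SOR mouse 1. In the libraries numbered 3 or 4 alone, which leave out DEN_SOR mouse 1 and keep DEN mouse 4, both had the other sign, at -0.63 for Igkc and -0.39 for Jchain. In the same comparison Ighd, the marker of naive B cells among the classes, pointed the other way at -0.66 (SE 0.32, adjusted p = 0.810), from 0.532 to 1.58 FPKM in DEN to 0.0785 to 0.490 FPKM in DEN_SOR. The 2 groups did not overlap for Ighd, but the 4 sorafenib libraries held only 3, 9, 17 and 4 reads on it. The share of all genes without overlap was not counted here either.

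The mice given both drugs had lower values of the same genes than those given sorafenib alone, again without a call by limma. Ighg1 was at 0.145, 0.246, 0.0198, 0.226 and 0.150 FPKM in DEN_CAF_SOR mice 1 to 5, with DEN_SOR mouse 3 the one sorafenib mouse inside that range. The log2 difference from DEN_SOR was -2.08 (SE 0.56, unadjusted p = 0.00112 and adjusted p = 1 by limma). DESeq2 gave -5.98 with an adjusted p of 0.0408, and edgeR an adjusted p of 0.949. The DESeq2 scale has no pseudocount, and DEN_SOR mouse 1 carries most of the mean there. Ighg1 was abundant enough to test mainly through DEN_SOR mice, so no p of it here, the interaction below included, is support. Without DEN_SOR mouse 1 the limma difference was -1.12. Igkc differed by -1.74 (SE 0.61), Igha by -1.39 (SE 0.61) and Jchain by -1.06 (SE 0.36), and without DEN_SOR mouse 1 by -0.99, -0.67 and -0.57. The caffeine by sorafenib interaction of Ighg1 was -1.91 (SE 0.76, adjusted p = 0.992 by limma), and -0.95 without DEN_SOR mouse 1. This comparison and the one of DEN_SOR with DEN share the 4 sorafenib libraries, so the opposite signs are no independent observation. With caffeine alone, the log2 differences of DEN_CAF from DEN ran from -0.44 (SE 0.56) for Igha to 0.06 (SE 0.31) for Iglc2. Without DEN mouse 4 Igha changed sign to 0.04 and Igkc from -0.34 to 0.14.

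The class of heavy chain varied widely between mice. IgM took 45.9% to 78.9% of the heavy chain constant region reads in Untreated mice, 10.7% to 59.1% in DEN, 26.0% to 56.8% in DEN_CAF, 1.70% to 43.9% in DEN_SOR and 40.4% to 63.2% in DEN_CAF_SOR. IgA took 6.40% to 35.5% in Untreated mice, with a mean of 19.2% ± 12.5 (SD, n = 5). In DEN mice it took 28.8% to 77.6%, with a mean of 42.8% ± 17.6 (SD, n = 6). IgM shares were thus on the high side and IgA shares on the low side in Untreated mice, with overlap between the groups for both classes. Without the 3 libraries with Xist reads, Untreated mice 1 and 2 remain, with IgM at 53.6% and 45.9% and IgA at 35.5% and 18.5%. Both of these IgM shares and the IgA share of mouse 1 lay within the DEN range. The mean IgA share was 35.7% ± 11.8 (SD, n = 5) in DEN_CAF, 40.1% ± 15.0 (SD, n = 4) in DEN_SOR and 34.2% ± 12.9 (SD, n = 5) in DEN_CAF_SOR.

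IgG, the class made mostly after antigen-driven switching, was a minor class in most mice. The 4 Ighg genes (Ighg1, Ighg2b, Ighg2c and Ighg3) together took 3.78%, 33.3%, 5.22%, 2.63% and 2.47% of heavy chain reads in Untreated mice 1 to 5. In DEN they took 4.33% to 21.5%. They took 57.1%, 35.7%, 7.31% and 34.2% in DEN_SOR mice 1 to 4, but 3.11% to 12.1% in DEN_CAF_SOR. Of the sorafenib mice, 3 of 4 exceeded every mouse of the other groups, Untreated mouse 2 being at 33.3% just under them. The mean was 33.6% ± 20.4 (SD, n = 4) in DEN_SOR, 25.8% without its mouse 1, and 9.70% ± 6.25 (SD, n = 6) in DEN. Ighe had 3 reads in DEN_SOR mouse 1 and 2 in DEN_CAF mouse 1 and was at 0 in the other libraries of the tables that list it, which leave out the DEN_CAF_SOR group.

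**Figure D3:**
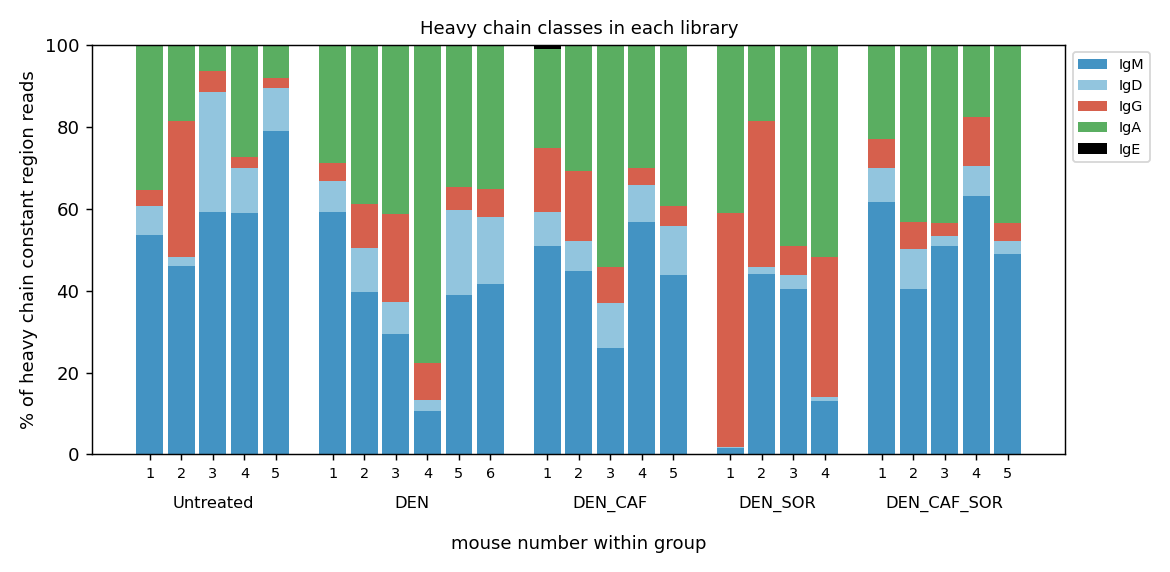
Share of each heavy chain class among heavy chain constant region reads, in percent, 1 bar per library, by group. IgA fills 77.6% of the bar of DEN mouse 4, IgG 57.1% of DEN_SOR mouse 1, and IgM 45.9% or more of all Untreated mice.

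The DEN_SOR group also had low lambda shares. Lambda constant region reads were 14.2%, 6.64%, 21.3%, 13.0% and 22.4% of light chain constant region reads in Untreated mice 1 to 5. They were 3.83% to 20.2% with a median of 13.8% in DEN mice, and 7.02% to 12.9% in DEN_CAF mice. In DEN_SOR mice 1 to 4 the lambda share was 4.79%, 1.75%, 2.65% and 1.19%, resting on 162, 7, 10 and 3 lambda reads. DEN_CAF_SOR mice had 15.0%, 13.7%, 14.2%, 15.0% and 9.32%. The 62 lambda reads of DEN_CAF_SOR mouse 2 include 4 on Iglc4, a lambda constant gene listed for that group alone. The DEN_SOR range did not overlap those of DEN_CAF_SOR, DEN_CAF or Untreated, and DEN mouse 4 alone brought DEN into contact with it. The mean lambda share was 2.59% ± 1.58 (SD, n = 4) in DEN_SOR, 1.86% without its mouse 1, and 13.4% ± 2.36 (SD, n = 5) in DEN_CAF_SOR. Shares were not tested. As levels, none of the 3 tested lambda constant genes passed the test between DEN_CAF_SOR and DEN_SOR, with log2 differences of -0.16 for Iglc1, 0.28 for Iglc2 and 0.57 for Iglc3 (SE 0.57, 0.35 and 0.34).

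**Figure D4:**
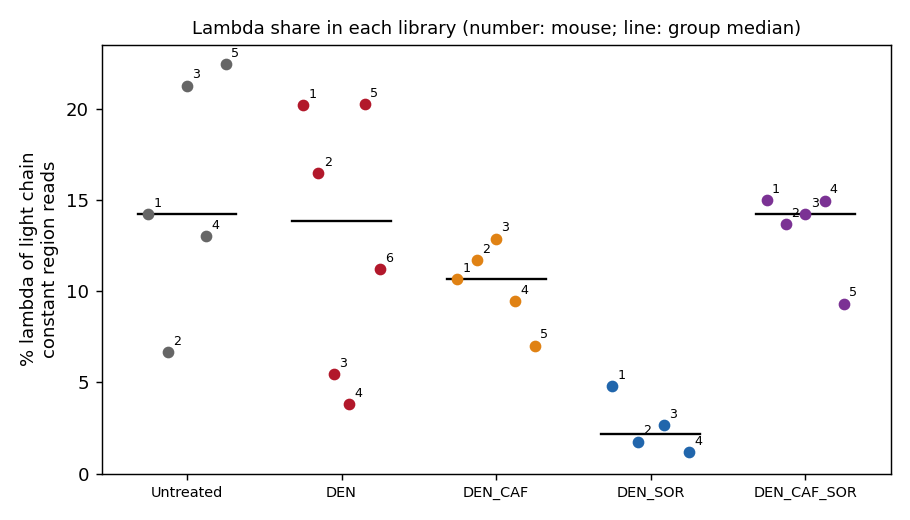
Lambda share of light chain constant region reads, in percent, in each library by group, with mouse numbers and group medians as lines. The 4 DEN_SOR mice lie between 1.19% and 4.79%, under all mice of the other groups except DEN mouse 4 at 3.83%.

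DEN_SOR mouse 1 differed from the other mice in the kind as well as the amount of antibody RNA. Its heavy chain reads were 57.1% IgG (95% Wilson interval 55.6% to 58.5%, counting error only), 41.1% IgA, 1.70% IgM and 0.0680% IgD. It held 1841 of the 2407 Ighg1 reads of the series, 527 of the 792 Ighg2b reads and 1814 of the 5601 Igha reads. Its Ighm level of 1.98 FPKM, by contrast, was among the lowest of all 25 libraries. Iglc1 had 129 reads (14.1 FPKM) there and 0, 0 and 1 in the other DEN_SOR mice, so lambda in that mouse was mostly of the Iglc1 type.

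Among the variable segments of the same mouse a lambda segment had the most reads, although kappa segments together had more, with 157 of 272 reads. Iglv1, which is usually expressed with Iglc1, had 95 of its 272 variable segment reads, or 34.9% (95% Wilson interval 29.5% to 40.8%). The same segment had 0 to 7 reads in every other library. Igkv1-110, printed above, had 23 reads there and 0 to 4 elsewhere, and Igkv1-88, a gene that the DEN_SOR table alone lists, had 18 reads there and none in the other DEN_SOR mice. Igkv3-5 had 11, Igkv1-117 had 10 and Igkv3-12 had 8 reads, and 33 segments had reads in all. Since Iglv1 and Iglv2 are nearly alike, the split between them is uncertain, and the same holds for Igkv1-110 and Igkv1-117, whereas Igkv1-88 and Igkv1-110 are further apart.

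DEN mouse 4 had another composition, and its library also stood apart in other genes, with the highest sums of the series for the hepatocyte genes (89960 FPKM, the next library being at 50223) and the secretion genes listed further on (1084 FPKM, the next being at 755). Their part in its immunoglobulin values was not tested. Igha had 1121 reads (21.3 FPKM) and made up 77.6% of its heavy chain reads (95% Wilson interval 75.4% to 79.7%), the highest IgA share of the series. Its 77 variable segment reads were spread over 29 segments, the largest of which, Igkv6-17, had 7 reads. Untreated mouse 3 was different again: Ighd had 174 reads (5.73 FPKM), or 29.3% of heavy chain reads (95% Wilson interval 25.8% to 33.1%), with IgM at 59.1%. Untreated mouse 2 held 85 Ighg1 reads, against 0 to 5 in the 4 other Untreated mice.

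Over all libraries variable segments were thinly covered. They numbered 64 kappa, 15 heavy and 3 lambda segments, and had 705, 71 and 200 reads. Of the 82 segments 21 had reads in a single library, 71 never reached 1 FPKM, 10 did so in 1 library and 1 in 2 libraries. Only 31 of the 82 were listed for all 5 groups, and a segment not listed for a group counted as 0 there. Reads in a single library therefore do not show that the other mice lacked the segment. The 6 segments with the highest mean level were Iglv1 (0.853 FPKM), Igkv3-12 (0.241), Igkv1-110 (0.222), Igkv1-117 (0.201), Igkv1-135 (0.173) and Igkv3-5 (0.171). Igkv1-135 was the most evenly spread of them, with reads in 16 libraries and at most 5 in any. In libraries with few variable reads the leading segment was set by a handful of reads: 4 of 6 reads on Igkv3-2 in DEN mouse 6 made 66.7%, and 5 of 10 on Ighv3-6 in DEN_CAF mouse 1 made 50.0%. Variable reads per 100 constant region reads ran from 1.45 to 7.42, with group means of 5.11 in Untreated and 3.61 to 3.93 in the 4 other groups.

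Jchain followed the kappa chain and IgA from mouse to mouse, but not IgM. Across the 25 libraries on log2(FPKM + 1), Pearson's r of Jchain with Igkc was 0.95 and Spearman's rho 0.91, each with a permutation p of 1e-05, the smallest that 100000 resamples can give (adjusted over 5 relations 2.5e-05 and 5e-05). With DEN_SOR mouse 1 and DEN mouse 4 left out, r was 0.86. It was 0.95 after subtraction of the group means, 0.91 in the 10 libraries numbered 3 or 4 and 0.96 in the 15 others. With Igha r was 0.91 and rho 0.77 (permutation p = 1e-05 and 3e-05, adjusted 2.5e-05 and 7.5e-05), and r was 0.73 without the same 2 mice. With Ighm r was 0.00 and rho 0.31 (permutation p = 0.998 and 0.137, adjusted 0.998 and 0.137), and r was 0.01 without Untreated mice 3 and 5. With Ighg2b r was 0.86 and rho 0.67 (permutation p = 5e-05 and 0.00044, adjusted 8.33e-05 and 0.000733), 0.72 without DEN_SOR mice 1 and 2. With Ighg1 r was 0.77 and rho 0.43 (permutation p = 0.00121 and 0.0333, adjusted 0.00151 and 0.0417), but 0.41 without DEN_SOR mice 1 and 4, so the relation with IgG1 rests largely on those mice.

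**Figure D5:**
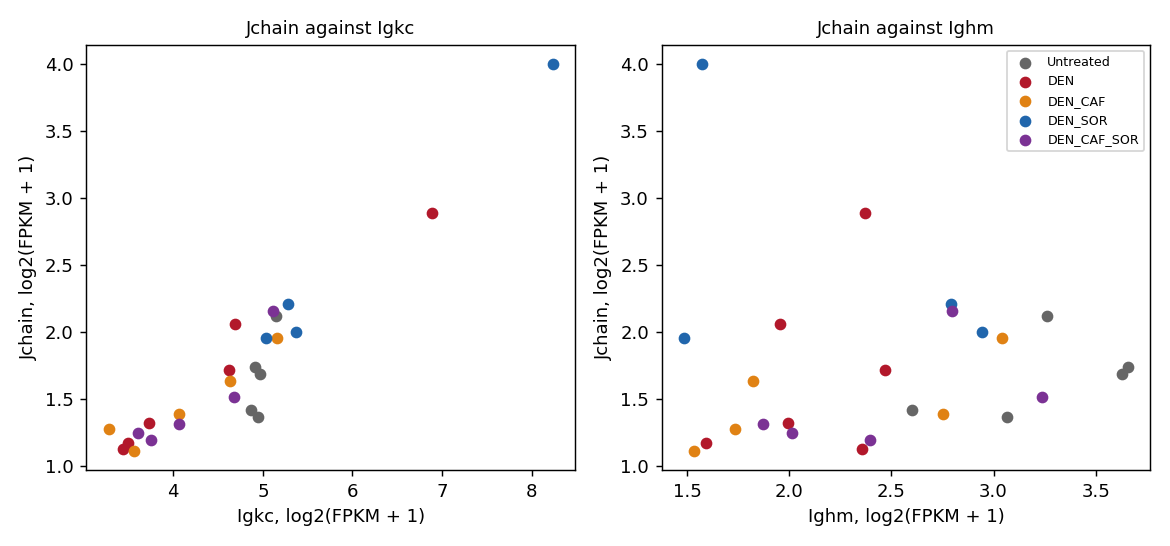
Jchain against Igkc and against Ighm, both axes as log2(FPKM + 1), 1 point per library, coloured by group. The points rise together for Igkc (r = 0.95) and show no relation for Ighm (r = 0.00).

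Few genes that mark B and plasma cells reached a measurable level. Of 15 B cell markers, the surface receptor part Cd79b and Ly6d were abundant enough to test. The 14 markers other than Ly6d summed to 1.33 to 10.1 FPKM in Untreated mice, 1.49 to 3.97 in DEN, 1.80 to 6.07 in DEN_CAF, 0.446 to 2.19 in DEN_SOR and 0.959 to 4.24 in DEN_CAF_SOR. The highest sum was that of Untreated mouse 3, the mouse with the most Ighd. With Ly6d the sums were 2.28 to 10.8, 5.93 to 300, 12.6 to 40.9, 16.8 to 146 and 3.71 to 28.0 FPKM in the same order of groups, since Ly6d alone reached 296 FPKM in DEN mouse 4 and 145 in DEN_SOR mouse 1. The 14 other markers summed to only 3.66 and 1.25 FPKM in these mice, so Ly6d did not go with them. Which cells its RNA came from was not tested. Ly6d differed by 3.03 on the log2 scale between DEN and Untreated (SE 0.84, adjusted p = 0.0591 by limma), and edgeR (adjusted p = 0.0123) and DESeq2 (adjusted p = 1.78e-05) both called it. It was 2.22 without DEN mouse 4 (adjusted p = 0.111 by limma), 3.02 without the 3 libraries with Xist reads (adjusted p = 0.309), and past the limma threshold without DEN_SOR mouse 1 (adjusted p = 0.0487). Of the 2 tested markers only 1, Ly6d, had a positive difference between DEN and Untreated. Cd79b did not, and no tool called it. Of 8 T cell markers none could be tested, and their sums ran from 0.528 to 5.66 FPKM.

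The plasma cell list differed between the 2 mice with much antibody RNA. Of its 12 genes 5 were tested (Jchain, Xbp1, Sdc1, Derl3 and Tent5c), and 0 passed in any of the 7 comparisons by limma, edgeR or DESeq2. At an unadjusted p under 0.05 by limma there were 2 in DEN against Untreated, 1 each in DEN_SOR against DEN and DEN_CAF_SOR against DEN_SOR, and 0 in the 4 others. The shares of all genes were 16.5%, 6.19% and 3.39% there, in that order, and 2.72% to 3.97% in the 4 others. The gene in both comparisons with DEN_SOR was Jchain. Xbp1 and Sdc1, which hepatocytes also express, made up most of its sum of 68.2 to 232 FPKM. Without them and Jchain, the 9 other genes summed to 2.19 to 4.38 FPKM in Untreated, 2.23 to 7.29 in DEN, 2.39 to 5.46 in DEN_CAF, 2.39 to 4.73 in DEN_SOR and 2.40 to 4.28 in DEN_CAF_SOR. DEN mouse 4 had the highest of these sums in the series, 7.29 FPKM, whereas DEN_SOR mouse 1 had the lowest of its group, 2.39 FPKM. Mzb1 and Tnfrsf17, a chaperone and a survival receptor of plasma cells, had 0 reads in DEN_SOR mouse 1, which allows up to 0.149 RPM. Prdm1, the plasma cell transcription factor, had 6 reads there and 27 in DEN mouse 4. In DEN_SOR mouse 1 the exocrine pancreas genes Ctrb1 and Cpa1 stood at 7.48 and 0.938 FPKM, against at most 0.567 and 0.194 in the other libraries. The 5 pancreas genes of the list, which include Cela1 at 6.99 FPKM there, summed to 17.4 FPKM in that mouse. That sum lay below the 31.9 of Untreated mouse 1, the 18.5 of Untreated mouse 5 and the 26.7 of DEN mouse 4. All 5 genes had reads in DEN_SOR mouse 1. By contrast, 4 of the 5 had none in Untreated mice 1 and 5, and 3 had none in DEN mouse 4. The sums therefore do not compare the same genes. In DEN_SOR mouse 1 the B cell chemoattractant Cxcl13 was at 7.70 FPKM, its highest level in the series. In DEN mouse 4 the secretory protein gene Fkbp11 was at 81.9 FPKM, against at most 15.8 elsewhere. The part of these genes in the high immunoglobulin totals was not tested. The 5 haemoglobin and red cell genes summed to 714 to 2327 FPKM in Untreated and 237 to 1077 in DEN, and the part of blood in the Ighm difference was not tested.

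Genes that serve antibody production and transport were read from lists of the pathway. Of 19 secretion genes, which fold and export antibody chains in plasma cells and other proteins in hepatocytes, 18 were tested and 0 passed in any comparison by limma. edgeR called 1 of them (Creld2) and DESeq2 4 (Creld2, Fkbp11, Hspa5 and Manf), all higher in DEN than in Untreated, where the tools called 4.69% and 8.16% of all genes, and neither called any in the other comparisons. In DEN against Untreated their median log2 difference was 0.31, against 0.03 over all tested genes, and 7 of 18 had an unadjusted p under 0.05, as had 16.5% of all genes. Creld2 (1.09, SE 0.30, adjusted p = 0.0588 by limma) came closest, and Hspa5, the main chaperone of the endoplasmic reticulum, stood at 0.84 (SE 0.31, adjusted p = 0.163). Without the 3 libraries with Xist reads they stood at 0.98 and 1.07 (adjusted p = 0.365 and 0.314 by limma). Of 11 antibody receptors and transporters 9 were tested and 0 passed by limma, edgeR or DESeq2, with 1 at an unadjusted p under 0.05 by limma in DEN against Untreated. There was also 1 each in DEN_CAF against DEN, DEN_SOR against DEN, DEN_CAF_SOR against DEN_SOR and the interaction. The shares of all genes were 16.5%, 2.81%, 6.19%, 3.39% and 3.97% in the same order. Pigr was at 366, 361, 422, 371 and 407 FPKM in Untreated mice 1 to 5, and at 188 to 347 FPKM in DEN with a median of 289. All Untreated mice were above all DEN mice, but the log2 difference of -0.49 (SE 0.21) had an adjusted p of 0.252 by limma. The share of all genes separated in this way was not counted. Fcgrt, the neonatal receptor that protects IgG from breakdown, differed by -0.55 (SE 0.29, adjusted p = 0.363), and by -0.28 without DEN mouse 4. Without the 3 libraries with Xist reads Pigr stood at -0.41 and Fcgrt at -0.42.

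Of 22 genes for plasma cell survival and homing 5 were tested and 0 passed by limma, edgeR or DESeq2, with 0 at an unadjusted p under 0.05 by limma. Cxcl12, a chemokine that retains plasma cells, differed by -0.63 between DEN and Untreated (SE 0.33, adjusted p = 0.357 by limma) and Itgb1, an integrin subunit, by 0.09 (SE 0.25). Without DEN mouse 4 they stood at -0.30 and 0.04, and without the 3 libraries with Xist reads at -0.40 and 0.11. Of 16 rearrangement and class switching genes 15 were listed, 6 were tested and 0 passed by limma. Mybl1, a transcription factor of germinal centre B cells, was closest at 0.78 (SE 0.23, adjusted p = 0.0692), and edgeR (adjusted p = 0.00398) and DESeq2 called it. Without the 3 libraries with Xist reads it stood at 0.79 (adjusted p = 0.319 by limma). Rag1, the recombinase of B cell precursors, was not tested and reached at most 0.0545 FPKM in any library that lists it.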

How the data were processed

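Liver RNA of 25 mice was analysed. Per the submitters' processing notes reads were aligned with HISAT2 2.0.5 to GRCm39 and counted with featureCounts 1.5.0-p3. The annotation release and strand use were not given in the sources used here, which leaves overlapping genes uncertain. The deposited tables, named for FPKM, hold a signal that is whole reads divided by 1 factor per library, so the reads were recovered (100% whole within 0.01 read). FPKM was recomputed from them, from each library's total and from the listed gene lengths. The design had assumed FPKM as deposited.

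Genes present in all 5 tables that reached an FPKM of 1 in 4 or more libraries were fitted with limma 3.58.1 (R 4.3.3) on log2(FPKM + 1), a pseudocount of 1, in 1 model of 5 groups with 20 residual degrees of freedom, after a test on simulated data. A fold change on this scale understates the change of low genes. P-values were adjusted by Benjamini and Hochberg over all genes within each of 7 comparisons. Fits with edgeR 4.0.16 and DESeq2 1.42.0 on the recovered reads were alternatives, among others. Genes absent from a table were counted as 0 in sums. Named members were all constant region genes and Jchain, the 6 variable segments with the highest mean FPKM, segments that led a library's variable reads, and list genes by level or p. Igkv1-88 and marker genes of single mice were chosen after their values were seen. The members and lists were chosen with earlier results of these data known. Labels call each library a separate mouse. GENCODE M21 transcripts on GRCm38 matched all 103 immunoglobulin genes. Intervals cover counting error only.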

Additional observations from a re-analysis of the deposited data

Results flagged for a closer look

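Within groups, the gap between the highest or lowest library and its nearest neighbour was compared with the group's range by Dixon's criterion. Of 70 sets of values 12 stood out. The criterion flags about 1 in 20 independent sets, but these sets overlap, being totals, genes and shares of the same libraries. The 12 can therefore not be set against that rate. DEN_SOR mouse 1 stood above its group in total immunoglobulin RNA (439 RPM), Igkc (301 FPKM), Iglc1 (14.1 FPKM) and Jchain (15.0 FPKM). DEN mouse 4 stood above its group in Igha (21.3 FPKM), Igkc (117 FPKM) and the IgA share (77.6%). Untreated mouse 2 stood above its group in Ighg1 (1.94 FPKM) and the IgG share (33.3%), and DEN mouse 3 in the IgG share (21.5%). DEN_CAF mouse 2 was low in Iglc1 (0.129 FPKM, 1 read), and DEN_CAF_SOR mouse 5 in the lambda share (9.32%).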

How the results depend on the processing

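The count of members called was 0 in all 7 comparisons with limma. In DEN against Untreated it became 2 with TMM scaling (Ighm and Iglc2), 1 with edgeR, 1 with DESeq2 and 1 without both DEN_SOR mouse 1 and DEN mouse 4, an alternative chosen after seeing the data. With 1 library left out it ran from 0 to 2, and it was 2 without Untreated mouse 2, 1 without DEN_CAF mouse 5 and 1 without DEN_SOR mouse 1. In DEN_CAF_SOR against DEN_SOR DESeq2 called 1 member, Ighg1. That gene was abundant enough to test mainly through DEN_SOR mice, so the call is no support. No other alternative changed a count of members. Of 63 differences (9 members in 7 comparisons) 40 changed sign under at least 1 of 38 alternatives and 3 were called under at least 1. In DEN_SOR against DEN only the libraries numbered 3 and 4 reversed Jchain (-0.39) and Igkc (-0.63). Group mean totals stayed within 1 SD, but the DEN_SOR mean without its mouse 1 was 57.3 RPM against 153, and the DEN mean without its mouse 4 was 31.2 against 52.4.

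Over all genes, DEN against Untreated gave 260 calls by limma, 598 by edgeR, 1040 by DESeq2, 540 in the libraries numbered 3 or 4, 477 with a term for them, 166 in the others and 44 when Untreated mice 3, 4 and 5, which hold Xist reads, were left out. The median difference of all genes was -0.16, 0.14 and 0.12 in the subsets of libraries numbered 3 or 4, the others, and without those 3 mice. With a replicate block the count of members called stayed 0 in all comparisons and 359 genes were called in DEN against Untreated. Same-numbered libraries had a median correlation of 0.134 over 46 pairs, 25 of them over 0.1, and differently numbered ones a median of -0.0264 over 203 pairs, 47 of them over 0.1. Same-numbered libraries thus tended to vary together, though not every such pair was over 0.1. The main fit did not take the numbers to pair the mice, and the fit with a replicate block above is the alternative that did. Most variable segments had too few reads to be tested.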
